A study of Homo sapiens with 18 samples.

Results

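The genes described here carry out homologous recombination and Fanconi repair, and 36 of the 41 listed genes were measured among 18417 in all. They were chosen by symbol from a fixed list, and each was represented by 1 probe set that names that gene alone. BRCA2, RBBP8, FANCA and FANCD2 were not analysed here, and neither was RAD51D, whose probe set also names a second gene. The cells were Raji, an established B-cell line from a Burkitt lymphoma that carries Epstein-Barr virus. Per the labels, every array came from cells treated with maslinic acid at 19 µM after an induction with a phorbol ester (0.05 µM) and sodium n-butyrate (3 mM). The groups were harvest times of 0, 4, 8, 12, 24 and 48 h, with 3 arrays each that the labels call biological replicates, 18 in all. The 0 h arrays carry the same 3 agents in the labels as the later ones, but the labels do not say whether the 0 h cells had yet been exposed to maslinic acid. Differences from 0 h are therefore differences between harvest times, against a baseline whose exposure is not known. Of the agents, butyrate blocks the enzymes that take acetyl groups off histones, the phorbol ester switches on protein kinase C, and maslinic acid is a triterpene of plants. Arrays without one of the agents, or untreated at the later times, were not analysed here, so effects of the agents and of time in culture cannot be told apart.

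Homologous recombination repairs a break through both DNA strands by copying the sister chromatid, so it operates in S and G2 phase. Nucleases cut the end back to single strands, BRCA1 and its partners prepare those strands to invade the intact copy, and helicases and nucleases take the joined molecules apart. The Fanconi pathway deals with crosslinks between the strands: a core complex attaches ubiquitin to FANCI and FANCD2, and recombination completes the repair. Many of these genes are transcribed mainly in dividing cells, and germline loss of several predisposes to cancer or causes Fanconi anaemia.

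Levels are log2 intensities, so 1 unit is a 2-fold step. Each level depends on its probes, so levels of different genes were not compared. The exception is a split of the repair genes at a 0 h level of 5. The 18 array medians lay between 4.03 and 4.25. Replicate 2 of 8 h had the narrowest interquartile range (2.37, against 2.74 to 3.16 on the other arrays). Each of the B cell markers measured kept its mean above the lower quartile of the arrays at every time. The mean over the 5 measured B cell markers was 6.52 to 7.43 at 48 h and 7.69 to 7.81 at 0 h, with CD79A called lower at 48 h. It was also low at 12 h, 6.52 to 6.80, where MS4A1, CD22 and PAX5 were called lower than at 0 h (differences -1.26, -1.29 and -1.34), and PAX5 was called lower at 8 h. At 12 h and again at 24 h, all 5 B cell markers had their 3 arrays below the 3 of 0 h, though 0 were called at 24 h. Of all 18417 genes, 2260 and 2512 showed such arrays at those times. The repair genes called lower then numbered 8 and 20. The part of these marker changes in the results on the repair genes was not tested. The mean over 5 T cell markers was 3.37 to 3.90 at 48 h and 3.16 to 3.30 at 0 h, and over 5 monocyte markers 3.58 to 3.61 at 48 h and 3.40 to 3.67 at 0 h. Of the T cell markers, CD3D was called higher at 24 h, with 4.84 at 24 h and 3.27 at 0 h (difference 1.57, adjusted p = 0.00297 in limma). The lower quartile of the 0 h arrays was 2.99 to 3.12. In such bulk RNA, fewer cells that express a gene and less of its RNA per cell cannot be told apart.

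Sequence near the start of the genes was searched for letters that resemble the binding sites of E2F factors, the regulators of S phase transcription. The windows were from RefSeq (GRCh38.p14) and ran from 250 bases before to 50 bases after a gene's start. The first window listed per gene was used. E2F-type letters were TTTCCCGC, TTTGGCGC, TTTCGCGC and TTTGCCGC on both strands. They were present in 4 of the 31 repair genes with a window (12.9%), against 644 of 14239 measured genes (4.52%) and 10 of 12 S phase markers (83.3%). EXO1, XRCC2, MND1 and FANCC held them, and their windows are shown because they are the whole set of matches. The capitals mark the matches, which do not overlap one another.
EXO1: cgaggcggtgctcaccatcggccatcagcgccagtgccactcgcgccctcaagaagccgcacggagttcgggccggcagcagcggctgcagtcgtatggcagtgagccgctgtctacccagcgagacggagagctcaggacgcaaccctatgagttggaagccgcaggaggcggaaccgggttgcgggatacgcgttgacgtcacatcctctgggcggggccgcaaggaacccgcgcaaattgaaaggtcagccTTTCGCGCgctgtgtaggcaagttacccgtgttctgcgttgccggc
XRCC2: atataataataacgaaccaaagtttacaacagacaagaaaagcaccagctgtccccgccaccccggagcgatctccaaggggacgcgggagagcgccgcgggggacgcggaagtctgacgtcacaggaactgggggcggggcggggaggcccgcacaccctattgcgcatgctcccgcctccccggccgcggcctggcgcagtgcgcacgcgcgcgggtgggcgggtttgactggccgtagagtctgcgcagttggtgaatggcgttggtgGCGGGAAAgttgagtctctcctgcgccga
MND1: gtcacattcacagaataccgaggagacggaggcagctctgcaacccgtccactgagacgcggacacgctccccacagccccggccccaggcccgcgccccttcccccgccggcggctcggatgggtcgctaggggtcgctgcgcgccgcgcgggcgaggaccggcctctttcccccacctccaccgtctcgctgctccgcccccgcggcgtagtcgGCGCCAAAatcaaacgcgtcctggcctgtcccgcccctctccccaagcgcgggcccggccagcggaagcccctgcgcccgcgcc
FANCC: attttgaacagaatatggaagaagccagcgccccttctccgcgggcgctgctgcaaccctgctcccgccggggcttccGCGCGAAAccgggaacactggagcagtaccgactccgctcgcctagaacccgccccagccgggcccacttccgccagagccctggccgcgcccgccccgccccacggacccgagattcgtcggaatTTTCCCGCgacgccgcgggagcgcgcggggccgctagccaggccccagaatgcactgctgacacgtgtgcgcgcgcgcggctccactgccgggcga
The EXO1 window is chr1:241847954-241848253 on the plus strand, and its match starts at position 4 counted from the gene's start. That of XRCC2 is chr7:152676092-152676391 on the minus strand, with the match at position 21. The MND1 window is chr4:153344438-153344737 on the plus strand, with the match at position -34. The window of FANCC, chr9:95317660-95317959 on the minus strand, holds matches at positions -172 and -46. EXO1, XRCC2 and MND1 were lower at 48 h, and FANCC was not called at any time. The TTTGAA letters of the cell cycle homology region were in 5 of the 31 (16.1%, against 11.9% of all genes). The CCAAT letters of NF-Y were in 15 (48.4%, against 36.3%). Among the 21 genes that were lower at 48 h and had a window, 3 held E2F-type letters, and among the 10 not called, 1 did. A match is a description of the letters and not a bound site.

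By 48 h, 23 of the 36 repair genes were lower than at 0 h and 0 were higher, at an adjusted p under 0.05 in limma over all genes. Across all 18417 genes, 8.11% were lower and 6.92% higher in the same comparison. The median difference was -1.20 on the log2 scale over the repair genes and 0.05 over all genes. At any p, all 3 arrays at 48 h lay below all 3 at 0 h in 26 of the 36, against 13.2% of all genes. The 26 include each of the 23, and also NBN, PALB2 and FANCL, which were not called. In 21 of the 23 the fall was at least 2-fold. Of the 30 repair genes with a 0 h level of 5 or more, 22 were called lower at 48 h. Of the 6 under that level, 1 was called, RAD54L. The part of the starting level in the calls was not tested. The largest falls were those of RAD51AP1 and FANCI, 8.97-fold and 8.88-fold. The lowest of the 3 arrays at 48 h was replicate 3 in 13 of the 23 genes, replicate 1 in 9 and replicate 2 in 1. At an unadjusted p under 0.05, 26 were lower and 1 was higher. The moderated F test, which asks whether a gene left its 0 h level at any time, called 25 of the 36 (69.4%, against 16.4% of all genes).

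**Figure D1:**
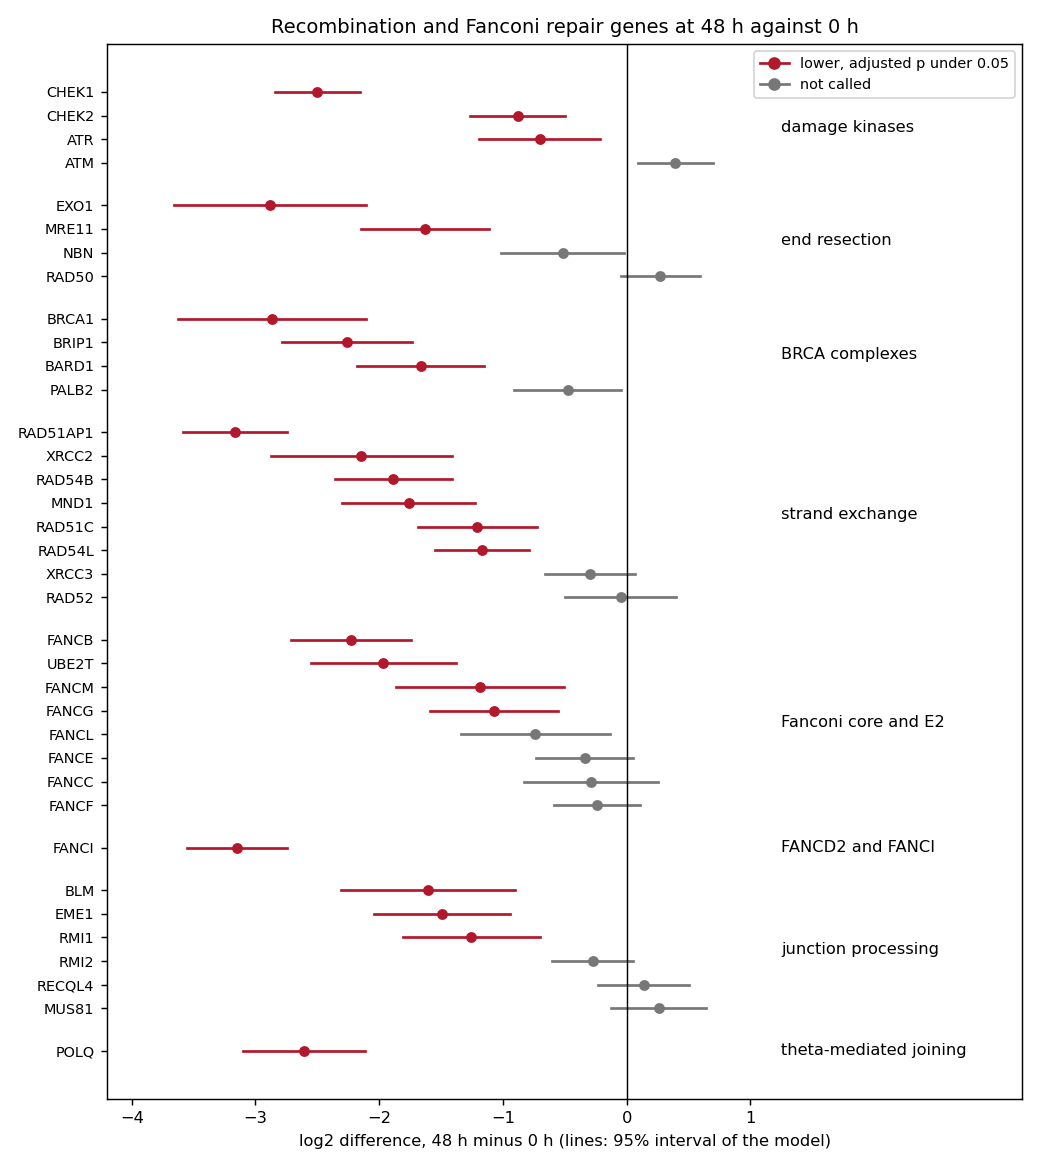
Each row is a measured repair gene, grouped by role, and the horizontal axis is the log2 difference of 48 h minus 0 h. Points are the model's estimates, lines their 95% intervals, and red marks the 23 genes called lower. RAD51AP1, at -3.16, and FANCI, at -3.15, lie farthest left, and ATM, at 0.39, lies farthest right.

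Of the 4 kinases that sense damage and halt the cycle, 3 were lower at 48 h. CHEK1, the checkpoint kinase that ATR activates, had log2 levels of 9.38, 9.50 and 9.36 at 0 h, 9.25, 9.18 and 8.93 at 4 h, 8.93, 8.97 and 8.68 at 8 h, 8.51, 8.66 and 8.75 at 12 h, 7.67, 8.06 and 7.81 at 24 h and 6.61, 7.16 and 6.98 at 48 h. Its means were lower at each later time, and the 48 h arrays lay well clear of every array up to 24 h. The fall at 48 h was 5.65-fold (log2 difference -2.50, SE 0.16, adjusted p = 1.05e-08). CHEK2, the checkpoint kinase that ATM activates, had levels of 5.67, 5.82 and 6.10 at 0 h, 4.83, 4.42 and 5.22 at 4 h, 4.63, 4.76 and 4.58 at 8 h, 4.47, 4.25 and 4.53 at 12 h, 4.49, 4.48 and 4.64 at 24 h and 4.81, 4.95 and 5.19 at 48 h. Here every array from 4 h on lay below the 0 h arrays, and the lowest mean came at 12 h. The difference from 0 h was -1.04 at 4 h (SE 0.18, adjusted p = 0.0064), -1.44 at 12 h (adjusted p = 6.36e-05) and -0.88 at 48 h (adjusted p = 0.00239). With the 6 arrays of 4 h and 0 h alone, the 4 h call of CHEK2 was lost (adjusted p = 0.0793).

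ATM and ATR, the kinases at the head of the pathway, differed from 0 h by less than 2-fold at 48 h. ATM had levels of 8.01, 7.81 and 8.04 at 0 h, 7.75, 7.89 and 7.90 at 4 h, 7.87, 7.80 and 7.58 at 8 h, 7.91, 7.58 and 7.89 at 12 h, 8.13, 8.46 and 8.06 at 24 h and 8.37, 8.32 and 8.35 at 48 h. Its 3 arrays at 48 h lay above all 3 at 0 h, but the difference of 0.39 (SE 0.15, 95% interval 0.09 to 0.70) was not called (adjusted p = 0.0808). ATM passed the F test (adjusted p = 0.023), with its lowest mean at 8 h. After quantile normalization its 48 h difference was 0.52 and was called (adjusted p = 0.0231). ATR averaged 7.25 ± 0.41 at 48 h and 7.95 ± 0.22 at 0 h (SD, n = 3 each), 1.63-fold lower, with an adjusted p = 0.049 in limma. It did not pass the F test (adjusted p = 0.314). The call of ATR was lost under 10 of 15 alternatives (9 other settings and 6 arrays left out in turn), among them leaving out replicate 1 of 48 h (adjusted p = 0.248), any of the 3 replicates of 0 h (adjusted p = 0.164, 0.1 and 0.0536) or replicate 3 of 48 h (adjusted p = 0.0586).

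**Figure D2:**
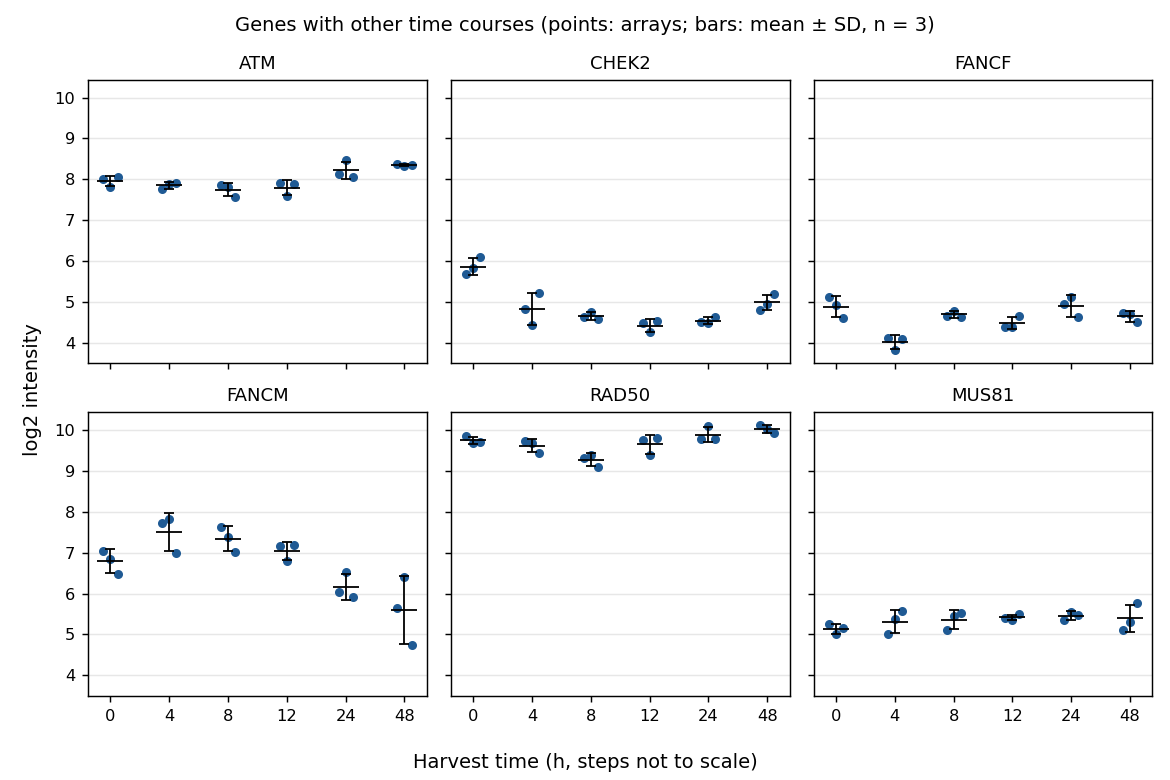
Log2 levels of 6 repair genes over harvest time, chosen after their values were seen to show courses unlike those of the 10 largest falls. Points are arrays, and bars are means ± SD of 3 arrays. CHEK2 lies below its 0 h arrays from 4 h on, FANCF is called lower at 4 h and at no later time, and FANCM averages 7.51 at 4 h before its late fall. ATM, RAD50 and MUS81 show no called difference from 0 h at any single time, though ATM and RAD50 pass the F test.

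Among the genes that process broken ends, EXO1 and MRE11 fell and RAD50 and NBN were not called. EXO1, an exonuclease that extends resection, had log2 levels of 9.25, 8.93 and 8.79 at 0 h, 9.30, 9.32 and 8.59 at 4 h, 9.28, 9.16 and 8.84 at 8 h, 9.09, 8.73 and 9.08 at 12 h, 7.13, 7.47 and 6.32 at 24 h and 6.64, 6.71 and 4.96 at 48 h. It stayed within the range of the 0 h arrays or close to it through 12 h and lay far below it on every array at 24 h and 48 h. The difference from 12 h to 24 h alone was -1.99 (SE 0.37, adjusted p = 0.00858). Without replicate 1 of 12 h that adjusted p was 0.0512. At 48 h EXO1 was 7.38-fold below 0 h (adjusted p = 2.71e-05), with replicate 3 lower than the other arrays of its group.

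MRE11 is the nuclease of the complex that it forms with RAD50 and NBN, which binds ends and starts resection. MRE11 levels were 5.25, 5.86 and 5.97 at 48 h, against 7.16, 7.43 and 7.39 at 0 h. These groups did not overlap, and the 48 h level was 3.10-fold lower (log2 difference -1.63, SE 0.25, adjusted p = 0.000133). RAD50, its ATPase partner, had 10.12, 10.03 and 9.92 at 48 h, against 9.85, 9.68 and 9.71 at 0 h. The RAD50 difference was 0.27 (SE 0.15, 95% interval -0.05 to 0.59, adjusted p = 0.276), and its 8 h mean of 9.28 ± 0.15 (SD, n = 3) was the lowest of the 6, and it passed the F test (adjusted p = 0.0211). NBN averaged 8.18 ± 0.51 at 48 h and 8.70 ± 0.08 at 0 h (SD, n = 3 each), a difference of -0.52 that was not called (adjusted p = 0.171). Every NBN array of a later time lay below the 0 h arrays, at 4 h only narrowly, without a call at any time. Whether the 3 subunits differed from one another in their change was not tested.

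BRCA1, BARD1 and BRIP1 fell, and PALB2, which links BRCA1 to BRCA2, was not called. BRCA1, a ubiquitin ligase that directs repair towards recombination, had levels of 7.98, 7.98 and 7.82 at 0 h, 7.41, 7.45 and 6.67 at 4 h, 7.45, 7.08 and 6.23 at 8 h, 6.94, 6.11 and 7.37 at 12 h, 6.20, 6.60 and 5.81 at 24 h and 5.18, 5.62 and 4.37 at 48 h. Its arrays spread widely from 4 h on, by SDs of 0.39 to 0.64, against 0.09 at 0 h. At 48 h it was 7.30-fold below 0 h (log2 difference -2.87, SE 0.36, adjusted p = 2.16e-05). BRIP1, a helicase that binds BRCA1, had levels of 7.78, 7.09 and 7.04 at 0 h, 7.20, 6.99 and 6.31 at 4 h, 7.27, 7.06 and 6.47 at 8 h, 7.04, 6.48 and 7.04 at 12 h, 5.88, 6.07 and 5.91 at 24 h and 4.99, 5.05 and 5.09 at 48 h. The BRIP1 arrays of 24 h lay below every earlier array and those of 48 h below them again, 4.79-fold under 0 h (adjusted p = 5.23e-06).

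BARD1, the obligate partner of BRCA1 in the ligase, had 6.33, 6.32 and 5.46 at 48 h, against 7.66, 7.53 and 7.90 at 0 h. It was 3.17-fold lower at 48 h (log2 difference -1.66, SE 0.24, adjusted p = 0.000104), with replicate 3 again the lowest. PALB2 averaged 6.87 ± 0.18 at 48 h and 7.35 ± 0.22 at 0 h (SD, n = 3 each). Its difference was -0.48 (95% interval -0.91 to -0.05, adjusted p = 0.14). Every PALB2 array of a later time lay below the 0 h arrays, without a call at any time.

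Of the 8 measured genes that take part in strand exchange, 6 fell at 48 h. RAD51AP1, which promotes invasion of the intact strand, had log2 levels of 9.36, 9.15 and 9.22 at 0 h, 9.36, 9.16 and 8.80 at 4 h, 8.83, 8.50 and 8.35 at 8 h, 8.09, 7.81 and 8.26 at 12 h, 6.64, 7.05 and 6.68 at 24 h and 5.69, 6.22 and 6.32 at 48 h. It was lower than 0 h on all 3 arrays from 8 h onward, and its 24 h arrays did not overlap those of 12 h (difference -1.27, SE 0.20, adjusted p = 0.00234). At 48 h the difference from 0 h was -3.16 (SE 0.20, adjusted p = 7.65e-09). XRCC2, which is needed for recombination, had levels of 6.08, 5.53 and 5.0 at 0 h, 5.10, 5.12 and 3.95 at 4 h, 5.44, 4.49 and 4.86 at 8 h, 4.76, 4.30 and 4.73 at 12 h, 3.64, 3.92 and 2.74 at 24 h and 3.32, 3.57 and 3.29 at 48 h. Its 48 h arrays lay a little above the lower quartiles of those arrays (3.04 to 3.08), so its 4.42-fold fall (adjusted p = 0.000279) can be an underestimate. XRCC2 was as low at 24 h as at 48 h, with differences from 0 h of -2.10 and -2.14.

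The DNA translocases of strand exchange also fell late. RAD54B averaged 4.01 ± 0.28 at 48 h and 5.90 ± 0.32 at 0 h (SD, n = 3 each), 3.70-fold lower (adjusted p = 1.26e-05). It was still at 5.99 ± 0.17 at 12 h, and fell by 1.52 on the log2 scale at 24 h against 12 h (SE 0.23, adjusted p = 0.00136). RAD54L, with 3.56 ± 0.20 at 48 h and 4.73 ± 0.25 at 0 h (SD, n = 3 each), was 2.25-fold lower (adjusted p = 0.000173). RAD51C, which forms a complex with XRCC3, was 2.31-fold lower at 48 h (adjusted p = 0.0012). MND1, best known from meiotic recombination, averaged 7.76 ± 0.43 at 48 h and 9.52 ± 0.25 at 0 h (SD, n = 3 each), 3.39-fold lower (adjusted p = 9.75e-05). RAD52, which anneals single strands, and XRCC3 were not called, with differences of -0.05 (95% interval -0.49 to 0.40) and -0.29 (95% interval -0.66 to 0.07).

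**Figure D3:**
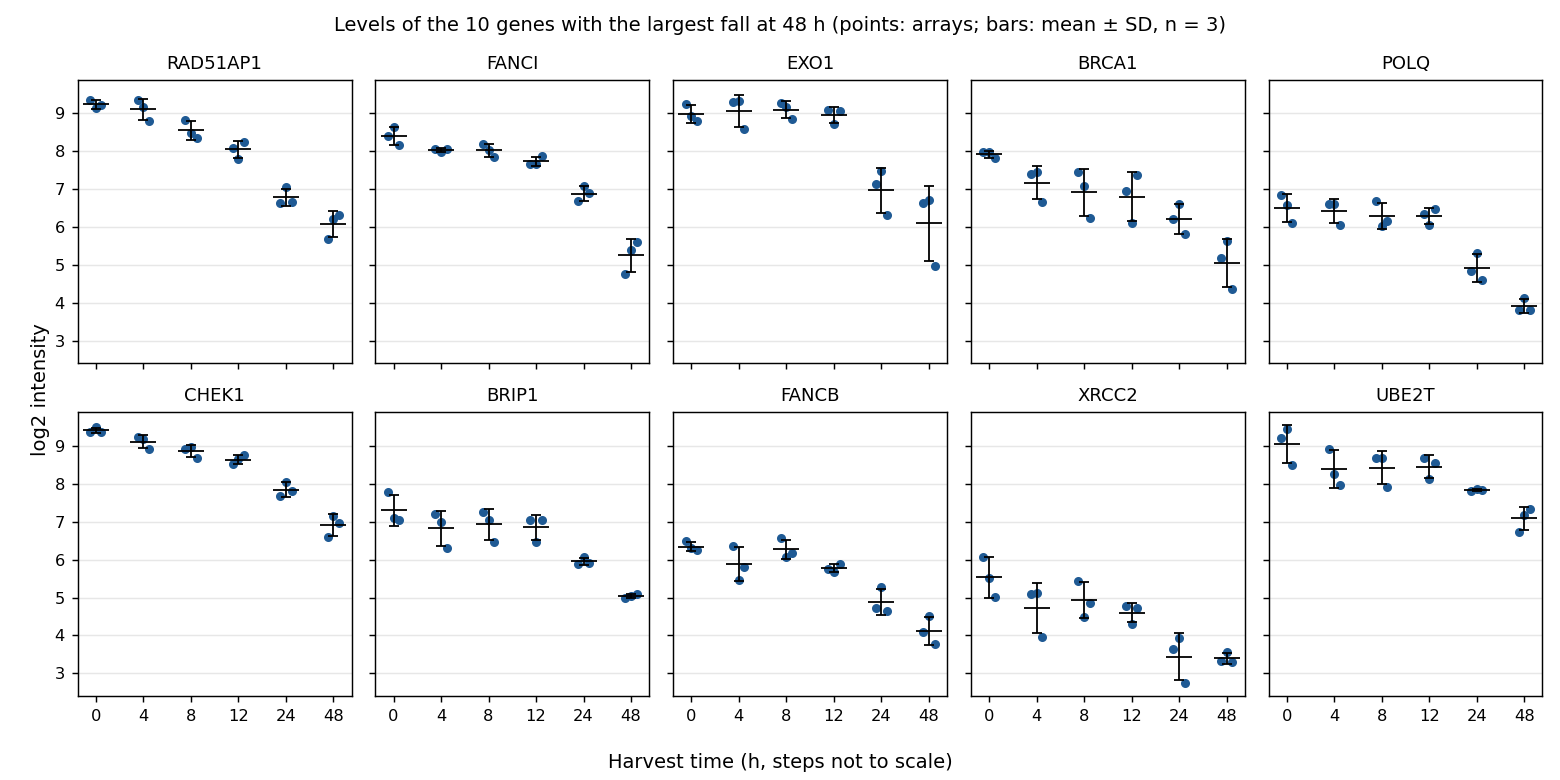
Log2 levels over harvest time of the 10 repair genes with the largest falls at 48 h against 0 h. Points are arrays, and bars are means ± SD of 3 arrays. EXO1 and POLQ keep means of 8.97 and 6.29 at 12 h before they drop, whereas RAD51AP1 and CHEK1 average 8.05 and 8.64 at 12 h, already below their 0 h arrays.

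In the Fanconi pathway, FANCI fell, as did 4 of the 8 measured genes of the core complex and its enzyme. FANCI, which carries the ubiquitin together with FANCD2, had levels of 8.41, 8.65 and 8.16 at 0 h, 8.06, 7.98 and 8.06 at 4 h, 8.20, 8.04 and 7.85 at 8 h, 7.66, 7.67 and 7.88 at 12 h, 6.68, 7.08 and 6.89 at 24 h and 4.77, 5.41 and 5.60 at 48 h. The arrays of 12, 24 and 48 h formed descending bands with no overlap between them. FANCI fell by 0.85 at 24 h against 12 h and by a further 1.63 at 48 h against 24 h (SE 0.19, adjusted p = 0.000459), and at 48 h it was 8.88-fold below 0 h (adjusted p = 6.69e-09). In the fit of the 6 arrays of 48 h and 24 h alone that step was not called (adjusted p = 0.0667). The step from 12 h to 24 h lost its call under 8 of 15 alternatives, and its adjusted p was 0.0512 to 0.19 with each of the 6 arrays left out in turn.

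UBE2T, the enzyme that hands the ubiquitin over, had levels of 9.22, 9.45 and 8.50 at 0 h, 8.94, 8.27 and 7.96 at 4 h, 8.69, 8.68 and 7.92 at 8 h, 8.70, 8.12 and 8.56 at 12 h, 7.81, 7.86 and 7.83 at 24 h and 6.74, 7.19 and 7.34 at 48 h. Its 3 arrays at 24 h agreed closely and lay below all earlier arrays, and those of 48 h were lower still. The fall at 48 h was 3.91-fold (log2 difference -1.97, SE 0.28, adjusted p = 7.76e-05). FANCB, a core subunit, had levels of 6.49, 6.31 and 6.24 at 0 h, 6.35, 5.46 and 5.81 at 4 h, 6.57, 6.07 and 6.17 at 8 h, 5.75, 5.68 and 5.90 at 12 h, 4.72, 5.27 and 4.63 at 24 h and 4.09, 4.50 and 3.78 at 48 h. The FANCB arrays of 24 h lay below every earlier one and those of 48 h lower again, 4.67-fold below 0 h (adjusted p = 2.57e-06). FANCG, another core subunit, was 2.10-fold lower at 48 h (adjusted p = 0.00546).

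The remaining core genes were mixed. FANCM, the translocase that anchors the core complex on DNA, had levels of 7.05, 6.84 and 6.47 at 0 h, 7.72, 7.83 and 6.98 at 4 h, 7.63, 7.39 and 7.02 at 8 h, 7.16, 6.79 and 7.20 at 12 h, 6.05, 6.53 and 5.93 at 24 h and 5.65, 6.40 and 4.75 at 48 h. Its means of 4 h and 8 h lay above 0 h without a call (differences 0.72 and 0.56), and at 48 h it was 2.28-fold below 0 h (adjusted p = 0.0166). That difference of -1.19 became -0.76 without replicate 3 of 48 h (adjusted p = 0.0939), and the call of FANCM was also lost without replicate 1 or 2 of 0 h (adjusted p = 0.0689 and 0.0564) and in the fit of 6 arrays (adjusted p = 0.0717). FANCF, a small core subunit, had levels of 5.13, 4.92 and 4.60 at 0 h, 4.12, 3.81 and 4.09 at 4 h, 4.66, 4.78 and 4.64 at 8 h, 4.39, 4.39 and 4.64 at 12 h, 4.95, 5.13 and 4.62 at 24 h and 4.73, 4.71 and 4.50 at 48 h. It dipped at 4 h, where its arrays lay below all of 0 h (difference -0.87, SE 0.17, adjusted p = 0.0117). Later differences were -0.19 at 8 h, -0.41 at 12 h (95% interval -0.76 to -0.06), 0.02 at 24 h and -0.24 at 48 h. At each of these times its arrays overlapped those of 0 h, without a call. FANCF lost its 4 h call when replicate 1 of 0 h (adjusted p = 0.0515) or replicate 2 of 4 h (adjusted p = 0.0703) was left out and in the fit of 6 arrays (adjusted p = 0.0738). FANCL, the ligase subunit, FANCC and FANCE were not called at 48 h, with differences of -0.74 (95% interval -1.34 to -0.14), -0.29 (95% interval -0.83 to 0.26) and -0.34 (95% interval -0.73 to 0.05). The FANCL arrays of 48 h nonetheless all lay below those of 0 h.

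Of the 6 genes that take recombination intermediates apart, BLM, RMI1 and EME1 fell at 48 h. BLM, a helicase that dissolves crossed strands, had 6.59, 6.92 and 7.71 at 48 h, against 8.81, 8.80 and 8.43 at 0 h. The groups did not overlap, and BLM was 3.04-fold lower (adjusted p = 0.0025), from a mean of 8.57 ± 0.39 at 12 h (SD, n = 3) that differed from 0 h by -0.10. RMI1, its partner, was 2.39-fold lower (adjusted p = 0.00263). RMI2, which binds RMI1, had a difference of -0.27 (95% interval -0.60 to 0.05).

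EME1 and MUS81 form a nuclease that cuts branched DNA. EME1 averaged 4.26 ± 0.14 at 48 h and 5.76 ± 0.09 at 0 h (SD, n = 3 each), 2.82-fold lower (adjusted p = 0.000569). MUS81 averaged 5.39 ± 0.34 at 48 h and 5.13 ± 0.12 at 0 h (SD, n = 3 each), a difference of 0.26 (95% interval -0.12 to 0.64). The difference between the changes of the 2 subunits was not tested. The helicase gene RECQL4 differed by 0.14 (95% interval -0.23 to 0.51). POLQ, the polymerase of a joining pathway used when recombination fails, had log2 levels of 6.85, 6.58 and 6.11 at 0 h, 6.61, 6.61 and 6.05 at 4 h, 6.68, 6.03 and 6.17 at 8 h, 6.34, 6.06 and 6.47 at 12 h, 4.83, 5.32 and 4.60 at 24 h and 3.80, 4.12 and 3.80 at 48 h. Through 12 h its arrays overlapped those of 0 h, and at 24 h and 48 h they lay below them. POLQ fell by 1.37 on the log2 scale at 24 h against 12 h (adjusted p = 0.00446) and was 6.10-fold below 0 h at 48 h (adjusted p = 5.17e-07).

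Over the harvest times of 4, 8, 12, 24 and 48 h, limma called 2, 4, 8, 20 and 23 repair genes lower than at 0 h. The shares of all genes called lower were 0.586%, 3.18%, 4.14%, 5.74% and 8.11% over the same times. No repair gene was called higher at any of them (1, 0, 1, 0 and 1 at an unadjusted p under 0.05), against 1.16%, 3.5%, 3.91%, 6.74% and 6.92% of all genes. Every gene called at 12 h was also called at 24 h and 48 h, and so were all 20 of 24 h at 48 h. At 4 h the called genes were CHEK2 and FANCF, and at 8 h CHEK2, CHEK1, RAD51AP1 and MND1. MRE11, BARD1, RAD51C and FANCI joined the 8 h genes at 12 h. A later call does not show a later start of the fall, because small early differences may miss the threshold.

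Several of the early calls rested on particular arrays. Of those at 8 h, CHEK1 lost its call with any of the 6 arrays left out (adjusted p = 0.058 to 0.169). RAD51AP1 lost it with any but replicate 1 of 8 h left out (adjusted p = 0.0909 to 0.16) and with the replicate number as a block (adjusted p = 0.0608). MND1 lost it without replicate 3 of 0 h, replicate 1 of 8 h or replicate 3 of 8 h (adjusted p = 0.0848, 0.0508 and 0.0872). CHEK2 kept its 8 h call under every alternative tried. The count at 8 h was therefore 1 or 2 whichever of its 6 arrays was left out.

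At 12 h, CHEK1, CHEK2 and RAD51AP1 kept their calls under every alternative tried. BARD1 lost its call with any of the 6 arrays left out (adjusted p = 0.052 to 0.111). MRE11 lost it without replicate 2 of 12 h (adjusted p = 0.0684), and MND1 without replicate 3 of 0 h or replicate 1 or 2 of 12 h (adjusted p = 0.0917, 0.0543 and 0.123). RAD51C lost it without any of the 0 h arrays or replicate 2 of 12 h (adjusted p = 0.0672 to 0.149), and FANCI with any array but replicate 3 of 0 h left out (adjusted p = 0.0581 to 0.167). With any 0 h array or replicate 1 of 12 h left out the count at 12 h was 5, and with replicate 2 of 12 h left out it was 3.

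Neighbouring late times were compared as well. CHEK1, EXO1, RAD51AP1, RAD54B, FANCI and POLQ were lower at 24 h than at 12 h, 6 of 36, against 0.554% of all genes lower in that comparison. Higher at 24 h were 0 repair genes (2 at an unadjusted p under 0.05), against 0.814% of all genes, and with array weights ATM and FANCF were called higher (differences 0.51 and 0.55). CHEK1 lost its call in this step without replicate 2 or 3 of 12 h or replicate 1 of 24 h (adjusted p = 0.063, 0.0873 and 0.116). From 24 h to 48 h CHEK1 and FANCI were called lower, 2 of 36, against 0.331% of all genes, and 0 were called higher (1 at an unadjusted p under 0.05), against 0.0706%. Without replicate 2 of 24 h or replicate 1 of 48 h the CHEK1 call of that step was lost (adjusted p = 0.0966 and 0.0734), as it was in the fit of 6 arrays (adjusted p = 0.207), so that the count was 1 without either array. In 22 of the 23 genes called at 48 h the 48 h mean lay below the 24 h mean, the exception being CHEK2. Over these 23 genes, the median share of the 48 h difference already present was 30.9% at 12 h and 66.3% at 24 h. The shares ran from -21.9% (FANCM) to 164% (CHEK2) at 12 h and from 48.3% (FANCI) to 151% (CHEK2) at 24 h.

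At 24 h the 12 genes called for the first time were EXO1, BRCA1, BRIP1, XRCC2, RAD54B, RAD54L, FANCB, FANCG, UBE2T, BLM, EME1 and POLQ. Among the 20 calls of 24 h, 15 stayed under every alternative tried. FANCG and EME1 lost theirs with any of the 6 arrays left out (adjusted p = 0.0649 to 0.135 and 0.0635 to 0.179). BLM lost it without replicate 1 or 2 of 0 h or replicate 1 or 3 of 24 h (adjusted p = 0.0769, 0.0828, 0.0574 and 0.121), and MRE11 and RAD51C without replicate 1 of 24 h (adjusted p = 0.0607 and 0.0542). At 48 h ATR, FANCM and RMI1 were added, and 21 of the 23 calls stayed under every alternative.

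The genes of the cell cycle fell over the same hours. The mean over the 36 repair genes was 5.58 to 5.82 on the arrays of 48 h and 6.82 to 7.08 on those of 0 h. Over 15 S phase markers, such as PCNA and the MCM genes of the replication machinery, it was 5.75 to 6.11 at 48 h and 7.54 to 8.09 at 0 h. Over 13 markers of G2 and M phase, such as CCNB1 and PLK1, it was 5.50 to 6.22 at 48 h and 8.46 to 8.66 at 0 h. At 48 h 14 of the 15 (not UHRF1) and 13 of the 13 were called lower, with median differences of -1.81 and -2.81. Among all genes, 8.11% were called lower. The part of a changed cell cycle in the fall of the repair genes was not tested.

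**Figure D4:**
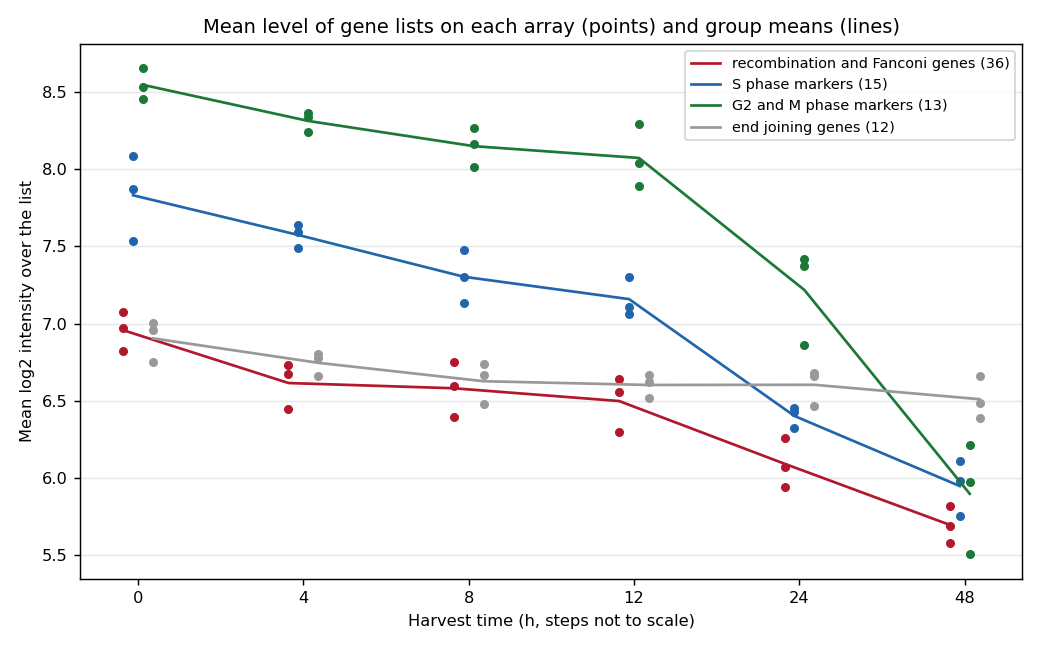
Mean log2 intensity over each gene list on every array (points), with lines through the group means, against harvest time. The repair genes average 5.70 at 48 h and 6.96 at 0 h, and the S phase and G2 and M phase markers descend alongside them. The 12 end joining genes average 6.51 at 48 h and 6.90 at 0 h.

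Other genes of recombination and the Fanconi pathway were also mostly lower or not called. Of 61 listed, 55 were measured, and at 48 h 24 were lower and 1 was higher, with a median difference of -0.55. Among all genes, 8.11% were lower and 6.92% higher. DNA2, a nuclease-helicase of long resection, fell by 2.64 on the log2 scale (adjusted p = 8e-08). The ubiquitin ligase RAD18 fell by 2.16, the helicase-like gene ZGRF1 by 2.05 and CLSPN, the adaptor through which ATR activates CHEK1, by 1.97. The higher gene was ERCC4, a nuclease subunit that unhooks crosslinks, with 6.54 at 48 h and 5.63 at 0 h (difference 0.90, SE 0.28, adjusted p = 0.0358).

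Other repair pathways showed falls as well. Among all genes, 8.11% were called lower at 48 h and 3.18% at 8 h. In mismatch repair 4 of 5 measured genes were lower at 48 h (MSH3 by a difference of -1.39, PMS2 by -1.0, PMS1 by -0.89 and MSH6 by -0.74), and 4 of 5 were already lower at 8 h. In base excision repair 10 of 19 were lower, among them the glycosylases NEIL3 and UNG (differences -2.88 and -2.38), FEN1 (-1.37) and APEX1 (-1.16). In end joining, the route that needs no template, 5 of 12 were lower, including XRCC4 (-1.19), PRKDC (-1.15), DCLRE1C (-1.08) and XRCC5 (-0.56). In nucleotide excision repair 3 of 14 were lower, DDB2 (-1.86), ERCC8 (-1.07) and DDB1 (-0.90). The median differences at 48 h were -0.89, -0.74, -0.55 and -0.30 for these 4 lists in turn, against -1.20 for recombination and Fanconi repair. Whether the lists differ from one another was not tested.

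**Figure D5:**
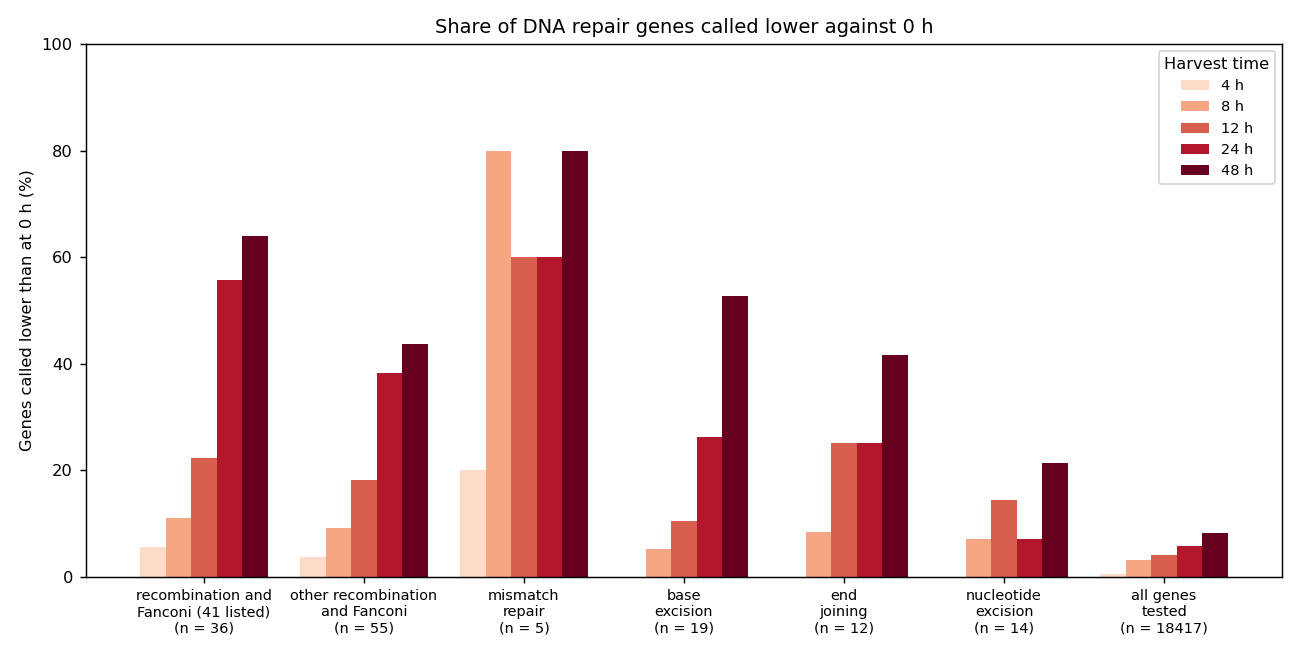
Percentage of each list called lower than at 0 h at 5 later times, with the number of measured genes under each name and all 18417 genes at the right. For the recombination and Fanconi genes the share is 63.9% at 48 h, for the other genes of the same pathways 43.6%, and for all genes 8.11%.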

How the data were processed

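Per the labels, mRNA of Raji cells was measured on 18 Affymetrix arrays, 3 at each of 6 harvest times. The values deposited by the authors are log2 intensities of 33297 probe sets, with similar medians on all arrays. The log base was deduced from their range, and the software, background correction and normalization method are not given in the sources used here. Of the probe sets, 19460 name 1 gene, 1754 name several and 12083 are not named here, by the platform annotation of GEO. A gene was represented by its probe set of highest mean, and each measured repair gene had 1. Columns belonging to other series numbered 0.

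With limma 3.58.1 (R 4.3.3), 1 linear model of harvest time and no other term was fitted over the 18 arrays (12 residual and 5.58 prior degrees of freedom). Moderated two-sided tests and the moderated F test were adjusted by the Benjamini-Hochberg method over 18417 genes, with calls at an adjusted p under 0.05. Intervals are 95% intervals of single genes. The model was tested on simulated data. Python 3.11.15, pandas 2.3.3 and matplotlib 3.10.9 made tables and plots. For arrays, their number limits the precision. Nothing says how separate the replicates' cultures were beyond the label, so p-values measure the spread between these samples.

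The genes, lists and tests were chosen with earlier results of these data known. Values of every array were to be given for the 10 largest falls and 4 largest rises at 48 h among called genes whose arrays did not overlap, of which there were no rises, and up to 4 called genes of each other list were named. CHEK2, ATM, FANCM and FANCF were shown in full after their values were seen. Of 41 listed genes 36 were measured. Sequences were read from RefSeq windows, and NBN, RAD54B, FANCI, RMI2 and RECQL4 were not searched.

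Same-numbered replicates deviated together at 8 h and 0 h (r = 0.20, 0.19 and 0.14 over genes), the comparison in which every pair exceeded 0.1. In the other comparisons at least 1 pair did not, so their numbers were not taken as pairs. Alternatives were quantile normalization, centring on array medians, leaving out the 25% dimmest genes, the mean of all probe sets of a gene, the interquartile range as a covariate, array weights, the 6 arrays compared alone, a replicate block, a mean-variance trend, and leaving out each array in turn. For single genes in comparisons other than 48 h against 0 h, these alternatives were added after seeing the data.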

Additional observations from a re-analysis of the deposited data

How the results depend on the processing

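No called difference of a repair gene changed sign under any alternative tried. The count lower at 24 h was 16 to 20 with 1 array left out and 20 to 22 otherwise, against 20. The count lower at 48 h was 21 to 23 and 22 to 24, against 23, and the F test gave 22 to 25 and 24 to 26, against 25. The earlier counts were less stable. At 4 h the count was 1 to 3 with 1 array left out and 0 to 2 otherwise (0 in the fit of the 6 arrays compared), against 2. At 8 h it was 1 to 2 with 1 array left out and 2 to 6 otherwise, against 4. The 2 came both with a mean-variance trend and in the fit of 6 arrays. At 8 h against 0 h the count was also 2 without replicate 3 of 24 h, an alternative chosen after seeing the data. At 12 h it was 3 to 7 with 1 array left out and 6 to 12 otherwise, against 8. For 24 h against 12 h it was 4 to 6 and 5 to 9, against 6, and 2 genes were higher with array weights, against 0. For 48 h against 24 h it was 1 to 2 with 1 array left out and 0 to 3 otherwise (0 in the fit of 6 arrays), against 2. At 48 h against 0 h 1 gene, ATM, was higher after quantile normalization, against 0. With the replicate block the counts lower were 2, 4, 10, 21 and 23 from 4 h to 48 h against 0 h, 6 at 24 h against 12 h and 3 at 48 h against 24 h. The block ended the calls of RAD51AP1 at 8 h and ATR at 48 h and no other, and 9 of 18 arrays correlated best with arrays of their own number. Centring on array medians changed the share of higher genes among all calls to 53.2%, 33.9% and 33.1% in the comparisons of 4, 12 and 48 h with 0 h (66.5%, 48.6% and 46.1% as deposited) to 72.4% for 24 h against 12 h (59.5% as deposited) and to 9.52% for 48 h against 24 h (17.6% as deposited), and the causes of these shifts were not tested. Falls that end near the lower quartile of an array, such as that of XRCC2, can be underestimates.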
